A study of Mus musculus with 9 samples.

Results

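The genes described here are 10 immediate early genes of mouse: Fos, Fosb, Jun, Junb and Jund of the AP-1 transcription factor, Egr1, Ier2, Dusp1, Atf3 and Zfp36. They were chosen by symbol, and each was found once among the 46517 genes of the deposited table. RNA was measured in 9 libraries from C57BL/6 mice over 18 months of age. They were 2 lymph nodes of plckGAPDH mice (animals 455 and 508), 4 spleens of plckGAPDH mice (343, 508, 547 and 1 whose column carries no number, called the unnumbered spleen) and 3 spleens of wild-type (WT) mice (1, 4 and 5). In plckGAPDH mice the Lck promoter, a promoter of T cells, drives a Gapdh transgene, and the labels call these mice tumour-developing. The labels also list 1 more plckGAPDH spleen under a number that no column carries, and the unnumbered column was not tied to it. Animal 508 gave both a spleen and a lymph node, and the sources used here leave unsaid if each of the 4 transgenic spleens is from its own animal. P-values therefore measure only the spread between these libraries.

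AP-1 is a dimer of a Fos family and a Jun family protein, or of 2 Jun family proteins, that binds DNA through a basic leucine zipper. Its genes are the classic immediate early genes: cells transcribe them at once after a signal, without making new protein, through factors such as SRF with its ELK partners and CREB. Several products then end the response, because DUSP1 removes phosphate from MAP kinases and ZFP36 speeds the decay of mRNAs with AU-rich elements. In lymphocytes, signals from the antigen receptor induce these genes.

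Fos, Fosb, Jun and Dusp1 were the genes that stood high in both libraries of animal 508 (values below), and their promoters are shown for that reason. RefSeq promoter entries (GRCm38.p6, 250 bases before to 50 after the annotated start) were matched for 8 of the 10 genes, without Egr1 and Ier2. Both strands were searched. Capitals mark TGACG, the core of the cAMP response element bound by CREB and ATF factors, and TGACATCA, the site type that Jun and ATF2 bind in the Jun promoter.
Fos: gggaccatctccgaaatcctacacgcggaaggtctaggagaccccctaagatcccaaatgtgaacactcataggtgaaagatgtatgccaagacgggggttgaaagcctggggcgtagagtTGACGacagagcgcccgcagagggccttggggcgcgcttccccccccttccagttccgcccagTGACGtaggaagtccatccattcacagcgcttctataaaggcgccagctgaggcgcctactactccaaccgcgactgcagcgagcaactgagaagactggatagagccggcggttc
Fosb: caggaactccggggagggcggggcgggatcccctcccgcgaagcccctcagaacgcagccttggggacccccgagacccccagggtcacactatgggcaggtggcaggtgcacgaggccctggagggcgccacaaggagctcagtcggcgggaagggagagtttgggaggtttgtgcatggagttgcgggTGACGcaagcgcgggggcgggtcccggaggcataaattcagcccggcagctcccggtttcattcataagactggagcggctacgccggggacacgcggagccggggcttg
Jun: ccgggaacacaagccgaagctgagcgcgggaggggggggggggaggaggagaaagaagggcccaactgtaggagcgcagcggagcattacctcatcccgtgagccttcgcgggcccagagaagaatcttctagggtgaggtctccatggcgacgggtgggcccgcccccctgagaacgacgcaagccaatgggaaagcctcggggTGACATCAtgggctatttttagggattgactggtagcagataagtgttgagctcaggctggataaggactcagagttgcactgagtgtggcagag
Dusp1: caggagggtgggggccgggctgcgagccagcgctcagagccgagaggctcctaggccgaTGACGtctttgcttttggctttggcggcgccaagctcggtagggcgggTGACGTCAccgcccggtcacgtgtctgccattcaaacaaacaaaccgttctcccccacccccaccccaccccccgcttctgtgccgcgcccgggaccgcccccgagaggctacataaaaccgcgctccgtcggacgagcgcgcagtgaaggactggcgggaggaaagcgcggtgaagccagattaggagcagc
The windows lie at chr12:85473640-85473939 on the plus strand (Fos), chr7:19309996-19310295 on the minus strand (Fosb), chr4:95052173-95052472 on the minus strand (Jun) and chr17:26508423-26508722 on the minus strand (Dusp1).

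TGACG was found at -129 and -66 in Fos and at -60 in Fosb, counted from the annotated start. In Dusp1 it was found at -191 and, as part of the palindrome TGACGTCA, on both strands at -143. It was found in 5 of the 8 promoters (also in Junb and Atf3), against 20.8% of all 32851 RefSeq promoters. TGACGTCA was found in Dusp1 alone among the 8, against 1.79% of all promoters. TGACATCA was found in Jun alone, at -45, against 3.62%. The AP-1 site TGANTCA was in none of the 8, against 7.81%. A serum response element (the CArG box of SRF) was in the window of Zfp36 alone, against 1.63%. These matches describe letters in a short window and not sites in use.

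Levels are given as FPKM, the fragments of a gene relative to its length and to the library's counted fragments, which can be compared between genes. Depth estimated from the steps of low values was 23800000 to 34600000 fragments per library. Fosb in plckGAPDH spleen 343 was the thinnest value, with an estimated 10.8 fragments, and Atf3 had 23.0 in plckGAPDH spleen 508. Some libraries stood apart. The summed level of 10 neutrophil markers was 46.3 and 57.8 FPKM in the lymph nodes, 616 to 1413 in plckGAPDH spleens, and 3542, 8.25 and 572 in WT spleens 1, 4 and 5. The sum of 8 erythroid markers was 74170 FPKM in WT spleen 5 and 1.81 in WT spleen 4, where Camp, a neutrophil gene, and the globin gene Hba-a2 were at 0. All 8 T cell and all 7 B cell markers were above 0 in every library. Gapdh, the transgene's own gene, averaged 680 FPKM in plckGAPDH spleens (SD 247, n = 4) and 328 FPKM in WT spleens (SD 25.9, n = 3), with a limma FDR of 0.635. Each plckGAPDH spleen, at 430 to 894 FPKM, lay above each WT spleen, at 299 to 348, as was so for 3.39% of all genes tested.

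The comparison of plckGAPDH with WT spleens asks how transgenic spleens differ in these genes. Fos and Fosb, which encode partners that must pair with a Jun protein, did not differ beyond the spread between libraries: 1 plckGAPDH spleen was far above all other spleens and the rest were not. Fos was at 1.03, 59.6, 3.09 and 3.33 FPKM in plckGAPDH spleens 343, 508, 547 and unnumbered, against 2.29, 2.67 and 2.16 FPKM in WT spleens 1, 4 and 5. Spleen 508 held 57.8 times the Fos level of spleen 343, while the WT spleens differed by 1.24 times at most. The log2 fold change of Fos was 1.02 (SE 0.88, limma FDR 0.896), and without spleen 508 it was -0.03 (limma FDR 0.993). Without spleen 508 the plckGAPDH mean was 2.48 ± 1.26 FPKM (SD, n = 3), against 2.37 ± 0.265 in WT spleens (SD, n = 3).

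Spleen 508 was the highest of the 7 spleens for Fos, Fosb, Jun, Egr1 and Dusp1, which is 5 of the 10 genes, against 5.11% of all genes tested. Fosb is among the 5 but not among the genes tested. Spleen 508 was singled out by values of these genes, so this count is a description only. Fosb was at 0.12, 7.45, 0.37 and 0.20 FPKM in plckGAPDH spleens 343, 508, 547 and unnumbered, against 0.38, 0.33 and 0.29 FPKM in WT spleens 1, 4 and 5. Spleen 508 was high, spleen 547 lay within the WT range and the other 2 lay below it. For Fos, by contrast, spleen 547 and the unnumbered spleen lay above the WT range and spleen 343 below it. Fosb did not reach 1 FPKM in 3 spleens and was not tested, so 9 of the 10 genes entered this comparison. Of these, 0 were called at an FDR under 0.05 with limma, against 1.44% of the 12607 genes tested (0.206% higher and 1.23% lower). An unadjusted p under 0.05 was found for 2 of the 9, Jun and Atf3, against 8.85% of all genes tested. With sample quality weights, 2 were called with limma, Dusp1 at 0.96 (FDR 0.0378) and Egr1 at 0.84 (FDR 0.0471). With those weights 1863 genes were called in all, against 181 with equal weights, and the estimation of the weights stopped before it converged.

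Jun, the Jun family member that drives proliferation in many cells, was the gene whose groups did not overlap. It was at 14.7, 38.4, 7.36 and 8.91 FPKM in plckGAPDH spleens 343, 508, 547 and unnumbered, against 6.14, 3.72 and 3.80 FPKM in WT spleens 1, 4 and 5. Each plckGAPDH spleen lay above each WT spleen. The log2 fold change was 1.46 (SE 0.51, 95% interval 0.35 to 2.58), with an unadjusted p of 0.0143 and a limma FDR of 0.328, so it did not pass the test. Leaving out any 1 spleen gave values from 1.0018 to 1.75, all positive. Thus 1 of the 10 genes did not overlap with plckGAPDH spleens higher, against 3.39% of all genes tested, and 0 did not overlap with them lower, against 3.88%. In either direction this was 1 of 10, against 7.27%. Fosb, 1 of the 10 but not among the genes tested, overlapped. The antisense gene Junos overlaps Jun and stayed at or below 1.58 FPKM.

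Junb, which often opposes Jun and is abundant in lymphocytes, was the highest of the 10 genes in 7 of the 9 libraries. It was at 37.0, 50.8, 46.7 and 60.3 FPKM in plckGAPDH spleens 343, 508, 547 and unnumbered, against 34.1, 32.96 and 46.9 FPKM in WT spleens 1, 4 and 5. The groups overlapped, since 2 plckGAPDH spleens lay below WT spleen 5. The log2 fold change was 0.35 (SE 0.39, limma FDR 0.940). Jund, the member with steady expression in resting cells, was at 17.2, 28.1, 32.8 and 16.9 FPKM in plckGAPDH spleens and at 15.3, 10.5 and 23.9 FPKM in WT spleens 1, 4 and 5. Its log2 fold change was 0.51 (SE 0.42, limma FDR 0.889). An antisense gene, Gm11175, overlaps Jund and had 14.5 to 56.7 FPKM, and Prdx2 overlaps Junb on the other strand with 30.2 to 99.5 FPKM. Ergic1 overlaps Dusp1 on the other strand with 7.71 to 30.2 FPKM, against 2.51 to 14.8 for Dusp1 itself. That overlap uses the GENCODE span of Dusp1, whose start lies 53655 bases from the RefSeq start of the promoter shown above. Overlap under the RefSeq start was not examined. An antisense gene, Gm44710, overlaps Zfp36 and has no level in the deposited data. The kit keeps strand, but no source used here says that counting did. The levels of Jun, Junb, Jund, Dusp1 and Zfp36 are uncertain to that extent.

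Egr1, a zinc finger factor induced by ERK signalling, was at 3.12, 12.2, 5.15 and 9.51 FPKM in plckGAPDH spleens 343, 508, 547 and unnumbered, against 3.61, 4.69 and 3.71 FPKM in WT spleens 1, 4 and 5. Of the plckGAPDH spleens, 3 lay above all WT spleens and spleen 343 lay below them, and the log2 fold change was 0.63 (SE 0.43, limma FDR 0.827). Atf3, a stress-induced factor that mostly represses, leaned the other way. It was at 1.23, 0.53, 0.84 and 0.73 FPKM in plckGAPDH spleens 343, 508, 547 and unnumbered, against 0.89, 3.91 and 2.93 FPKM in WT spleens 1, 4 and 5. WT spleens 4 and 5 lay above all plckGAPDH spleens and WT spleen 1 lay among them. The log2 fold change was -0.87 (SE 0.37, 95% interval -1.67 to -0.07), with an unadjusted p of 0.0363 and a limma FDR of 0.500. Ier2, a nuclear protein of the immediate early response, was at 2.80, 12.9, 10.6 and 8.36 FPKM in plckGAPDH spleens and at 9.95, 6.70 and 14.6 FPKM in WT spleens. Its groups overlapped, with spleen 343 the lowest of the 7, and its log2 fold change was -0.33 (limma FDR 0.970) and 0.07 without spleen 343.

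The 2 genes of feedback went in opposite directions and neither passed the test. Dusp1, the MAP kinase phosphatase, was at 3.86, 14.8, 2.51 and 7.89 FPKM in plckGAPDH spleens 343, 508, 547 and unnumbered, against 2.71, 3.08 and 4.57 FPKM in WT spleens 1, 4 and 5. Spleen 508 and the unnumbered spleen lay above the WT range, and the log2 fold change was 0.67 (SE 0.49, limma FDR 0.849). Zfp36, the decay factor also called tristetraprolin, was at 17.5, 32.3, 17.0 and 31.1 FPKM in plckGAPDH spleens and at 30.5, 18.7 and 51.7 FPKM in WT spleens 1, 4 and 5. WT spleen 5 was the highest and the log2 fold change was -0.39 (SE 0.45, limma FDR 0.944). Over the 9 genes tested, 6 had positive and 3 negative fold changes, while the median over all genes tested was 0.02. Rescaling the libraries without mitochondrial, receptor and haemoglobin genes moved that median to -0.18.

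**Figure D1:**
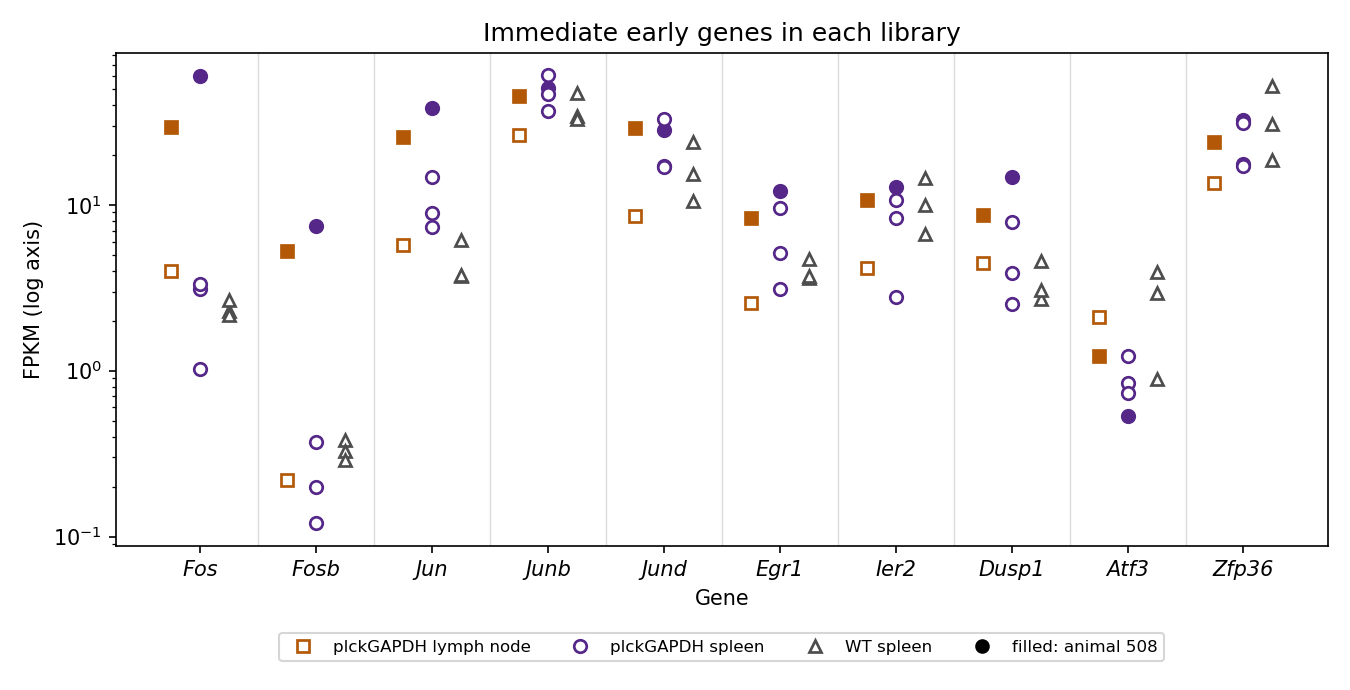
FPKM (log axis) of the 10 genes in each library, 1 point per library, with plckGAPDH lymph nodes (squares) left of plckGAPDH spleens (circles) and WT spleens (triangles), and animal 508 filled. The filled points of Fos, Fosb, Jun and, by a small margin, Dusp1 lie above all open ones, and every plckGAPDH spleen lies above every WT spleen for Jun only.

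In WT spleens, Junb at 32.96 to 46.9 FPKM and Zfp36 at 18.7 to 51.7 FPKM came first and lay within each other's spread. Jund at 16.6 ± 6.80 FPKM and Ier2 at 10.4 ± 3.94 (SD, n = 3 each) followed, also within their spread. Jun at 4.55 ± 1.38, Egr1 at 4.00 ± 0.597, Dusp1 at 3.45 ± 0.985, Atf3 at 2.58 ± 1.54 and Fos at 2.37 ± 0.265 FPKM came next, with neighbours that do not differ beyond their spread. Fosb was last at 0.333 ± 0.0451 FPKM (SD, n = 3), below Fos in all 9 libraries. In plckGAPDH spleen 508 this order changed: Fos came first, before Junb and Jun. In lymph node 508 Fos came second, after Junb.

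A library's whole scaling cancels in the make-up of AP-1 RNA, the share of each gene in the summed FPKM of Fos, Fosb, Fosl1, Fosl2, Jun, Junb and Jund. Junb made the largest part in all libraries but spleen 508. Jun made 14.8% ± 6.85 of this sum in plckGAPDH spleens and 7.40% ± 2.70 in WT spleens (SD, n = 4 and n = 3), with an exact two-sided permutation p of 0.200 over 35 splits and an adjusted p of 0.467. Fosl2, a Fos-related gene, made 1.13% ± 0.664 in plckGAPDH spleens and 2.54% ± 0.592 in WT spleens, with an exact permutation p of 0.0857 and an adjusted p of 0.467. Junb made 49.1% ± 15.9 in plckGAPDH spleens and 59.9% ± 3.33 in WT spleens (exact permutation p of 0.343, adjusted p of 0.600). The smallest p that 35 splits allow is 0.0286, which is 0.2 for a single share after adjustment over 7. At least 5 shares at that p would be needed for any to pass, so the absence of a pass carries little weight. The 4 Fos family genes together made 36.6% in spleen 508 and 26.1% in lymph node 508, against 12.5% in lymph node 455, 3.07% to 6.06% in plckGAPDH spleens 343, 547 and unnumbered, and 5.16% to 9.19% in WT spleens.

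**Figure D2:**
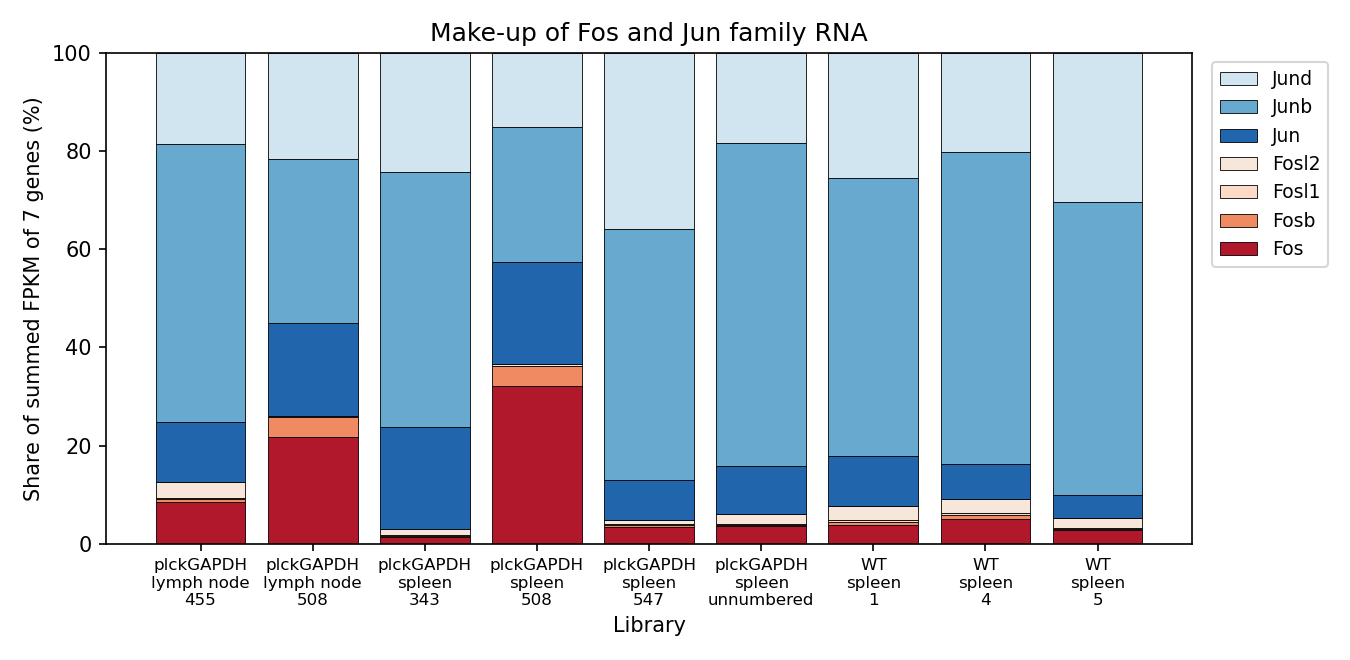
Share (%) of each Fos and Jun family gene in the summed FPKM of the 7 genes, 1 bar per library, with plckGAPDH lymph nodes, plckGAPDH spleens and WT spleens running left to right. Fos (dark red) makes 32.2% in spleen 508 and 21.9% in lymph node 508, against 8.60% or less in each other library.

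Both libraries of animal 508 stood apart for part of the genes, and this description carries no test because the animal was singled out by its values. Fos was at 59.6 FPKM in its spleen and 29.6 in its lymph node, against at most 3.99 in the 7 other libraries. Fosb was at 7.45 and 5.28 FPKM, against at most 0.38. The lower of the animal's libraries was 7.41 times the highest other for Fos and 13.9 times for Fosb. Jun was at 38.4 and 25.5 FPKM, against at most 14.7, and Dusp1 at 14.8 and 8.63, against at most 7.89. Thus 4 of the 10 genes were above all other libraries in both, against 2.48% of the 13682 genes with at least 1 FPKM in 2 libraries. Over 5 times the highest other were 2 of the 10, against 0.110% of all. Fosb is in both counts, and it met the filter of 1 FPKM in 2 libraries only through this animal. These shares are thus a description of values that singled the animal out. The FPKM columns of this animal summed to 2667329 in the lymph node and 2341951 in the spleen, against 1028802 to 1686755 in the other libraries, so levels across libraries depend on the scaling.

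The other 6 genes did not show this. Junb, Jund, Egr1, Ier2 and Zfp36 lay within the range of the other libraries in at least 1 of the animal's libraries, and Atf3 was the lowest of all libraries in its spleen, at 0.53 FPKM, and at 1.22 in its lymph node. Median-of-ratios scaling, which reads a library by its typical gene, gave 10.6 times for Fos, 24.98 for Fosb, 3.49 for Jun and 2.62 for Dusp1, and then Egr1, Jund, Ier2, Junb and Zfp36 also came out above, at 1.06 to 2.09 times. Rescaling without mitochondrial, receptor and haemoglobin genes gave 2.74 times for Fos and 4.11 for Fosb, while Jun at 0.581 and Dusp1 at 0.503 times came inside the range of the others. Fos and Fosb were therefore above under each of the 3 scalings, and Jun and Dusp1 under 2.

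Within animal 508, 8 of the 10 genes were lower in the lymph node than in the spleen. Fos in the lymph node was 0.496 times its level in the spleen, Dusp1 0.584, Jun 0.664, Fosb 0.709 and Junb 0.893. The median was 0.688 over genes with at least 1 FPKM in spleen 508 and in 2 libraries. The typical gene of this set was thus lower too. Jund was at 1.04 times, and Atf3, under 1 FPKM in spleen 508 and so outside that set, at 2.30. Plasma cell markers were also high in this animal: their summed level was 2317 FPKM in lymph node 508 and 4390 in spleen 508. It was 2563 FPKM in lymph node 455, where Fos was at 3.99 and Fosb at 0.22 FPKM. The marker Jchain alone was at 1886 FPKM in lymph node 455, 3472 in spleen 508 and 1661 in lymph node 508. Sdc1 was lower in lymph node 455, at 10.2 FPKM, against 38.7 in spleen 508 and 26.9 in lymph node 508. Xbp1 was lower too, at 117 against 307 and 188, while Mzb1 and Prdm1 lay between the animal's levels. The plasma cell sum was 70.3 to 294 FPKM in plckGAPDH spleens 343, 547 and unnumbered, and 216 to 323 in WT spleens. The summed level of T cell markers was 203 FPKM in lymph node 508 and 229 in spleen 508, against 288 or more in every other library. That of macrophage and monocyte markers was 167 and 320 FPKM, against 445 or more, and that of endothelial and stromal markers 8.13 and 8.27 FPKM, against 18.4 or more. On the deposited scale the sums of these 3 lists were thus lowest in both libraries of the animal, but not every marker was. The macrophage marker C1qa was at 25.5 FPKM in spleen 508 and 17.6 in lymph node 508, against 6.12 in WT spleen 1. The endothelial marker Pecam1 was at 7.58 and 7.16, against 5.81 in lymph node 455. The T cell marker Trac was at 31.6 in spleen 508, against 28.5 in spleen 547. Median-of-ratios scaling divides levels by 0.791 in spleen 508, 0.547 in lymph node 508 and 1.398 in spleen 547. The order of the sums thus depends on the scaling. The part of these lists in the Fos and Fosb levels was not tested. Fewer cells of a type and less RNA per cell cannot be told apart in bulk samples, and which cells held the Fos RNA was not tested.

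The other genes of these pathways were above all other libraries in animal 508 about as rarely as all genes. Of 36 other immediate early genes with at least 1 FPKM in 2 libraries, Rhob, a small GTPase, was above all other libraries in both, at 30.9 FPKM in the spleen and 21.0 in the lymph node, against at most 17.4. This was 1 of 36, near the 2.48% of all genes. In the opposite direction, 6 of the 36 were below all others in both, against 24.6% of all genes. Among these was Nr4a1, an orphan receptor induced by antigen receptor signals, at 1.64 and 0.84 FPKM against 1.98 to 11.6 in the others. The share below was no larger than that of all genes and depends on the scaling, so it shows nothing particular to Nr4a1. Of 11 heat shock genes tested, 0 were above and 3 below in both libraries, and Hspa1a, an inducible chaperone, was at 0.08 and 0.20 FPKM there. Of 25 genes of the ERK, JNK, p38 and SRF pathways 0 were above and 7 below in both, of 11 other AP-1 family genes 0 and 3, and of 7 mRNAs bound by ZFP36 0 and 3. With lists of this size, 0 above is near the share of all genes and shows nothing about them.

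**Figure D3:**
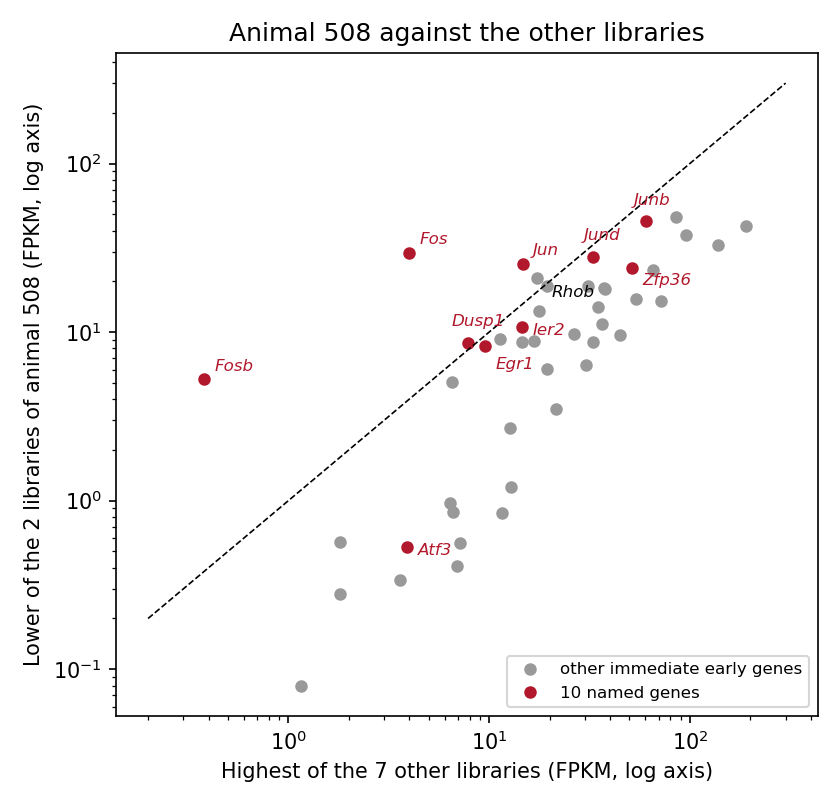
Lower of the 2 libraries of animal 508 against the highest of the 7 other libraries, both in FPKM on log axes, for the 10 genes (red) and 36 other immediate early genes (grey), with the line of equality dashed. Fosb and Fos lie far above the line at 13.9 and 7.41 times, Jun, Dusp1 and Rhob lie closer to it, and the rest lie below.

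The comparison of plckGAPDH lymph nodes with plckGAPDH spleens asks whether the genes differ between the organs of transgenic mice. All 10 genes entered this fit, Fosb only through the libraries of animal 508. Of them, 0 were called with limma at an FDR under 0.05, against 0.0146% of 13682 genes (0.00731% in each direction), and for 0 was the unadjusted p under 0.05, against 11.3% of all genes tested. In all 10 the groups overlapped, whereas they did not overlap in 30.5% of all genes tested (30.0% with lymph nodes lower). The median over all genes tested was -0.59, and -0.01 with median-of-ratios scaling, so values near -0.59 follow the typical gene.

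Fos was at 3.99 and 29.6 FPKM in lymph nodes 455 and 508, against 1.03 to 59.6 in plckGAPDH spleens, and its log2 difference was 0.85 (SE 1.12, limma FDR 0.587). Without lymph node 508 it was -0.45 (limma FDR 0.894), without lymph node 455 it was 2.16 (limma FDR 0.423) and without spleen 508 it was 1.90 (limma FDR 0.130). Jun was at 5.73 and 25.5 FPKM in lymph nodes 455 and 508, against 7.36 to 38.4 in plckGAPDH spleens. Its log2 fold change was -0.17 (SE 0.67, limma FDR 0.854), and the sign turned to 0.54 with median-of-ratios scaling. On the deposited scale lymph node 455 was the lowest of the 6 plckGAPDH libraries for Jun, and also for Junb, Jund, Egr1 and Zfp36. With median-of-ratios scaling this held for Jund only. Jun was then at 7.31 in lymph node 455, against 5.27 in spleen 547, and Zfp36 at 17.2, against 12.2.

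Junb was at 26.3 and 45.4 FPKM in lymph nodes 455 and 508, against 37.0 to 60.3 in plckGAPDH spleens, and Jund at 8.61 and 29.1, against 16.9 to 32.8. Their log2 fold changes were -0.46 and -0.48 (limma FDR 0.445 and 0.527). Egr1, Ier2 and Zfp36 were at -0.42, -0.16 and -0.36, and Fosb and Dusp1 at 0.48 and 0.05. Atf3 was at 2.10 and 1.22 FPKM in lymph nodes 455 and 508, against 0.53 to 1.23 in plckGAPDH spleens, with 0.53 (SE 0.41, limma FDR 0.407). No gene of the 10 was called in this comparison under any alternative tried.

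**Figure D4:**
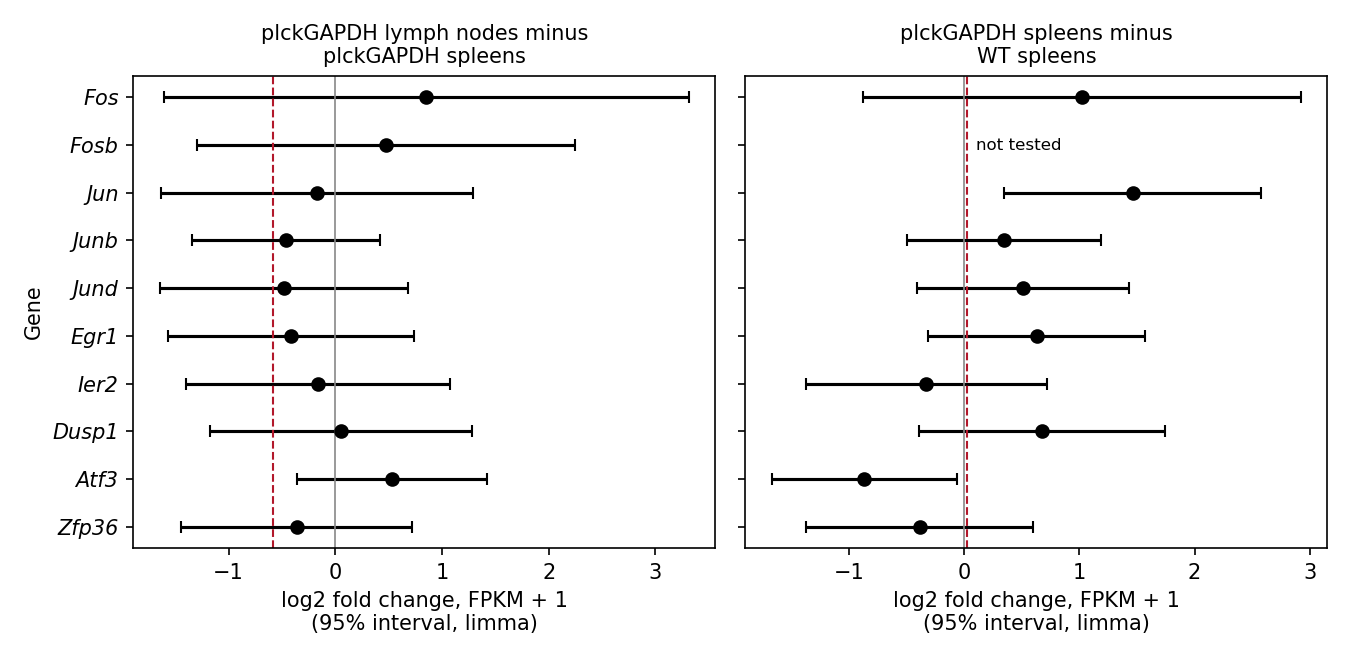
Log2 fold changes on the FPKM + 1 scale with 95% intervals from limma, for 10 genes in plckGAPDH lymph nodes minus plckGAPDH spleens (left) and 9 in plckGAPDH spleens minus WT spleens (right, Fosb not tested), with the dashed red line at the median of all genes tested (-0.59 and 0.02). The intervals of Jun and Atf3 on the right lie off 0, and neither gene passed the adjusted test.

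The other genes of these pathways gave no calls between the spleens with equal weights, against 1.44% of all genes tested. Sample quality weights gave 891 higher and 972 lower calls among all 12607 genes tested, though their estimation stopped before it converged. With sample quality weights, limma called 7 higher and 1 lower among 34 other immediate early genes, 3 and 1 among 11 other AP-1 family genes, 1 and 2 among 25 genes of the ERK, JNK, p38 and SRF pathways, 1 and 0 among 10 heat shock genes, and 5 and 0 among 7 mRNAs bound by ZFP36. The sign of each list's median turned when single libraries were left out: it ran from -0.03 to 0.24 for other immediate early genes, -0.27 to 0.16 for other AP-1 family genes, -0.17 to 0.10 for ERK, JNK, p38 and SRF pathway genes and -0.20 to 0.44 for heat shock genes. Of 34 other immediate early genes tested, 0 rose and 0 fell with limma, with 19 positive and 15 negative fold changes and a median of 0.10, which was -0.11 after rescaling without mitochondrial, receptor and haemoglobin genes. Sik1, a kinase induced by cAMP, had the largest value at 1.68 (SE 0.48, limma FDR 0.170). It was at 20.5, 22.1, 37.97 and 9.77 FPKM in plckGAPDH spleens 343, 508, 547 and unnumbered, against 8.08, 3.21 and 6.82 FPKM in WT spleens 1, 4 and 5, and the groups did not overlap. Trib1, a pseudokinase that targets proteins for degradation, was at 1.36 (limma FDR 0.441), and its groups did not overlap either. Groups did not overlap with plckGAPDH spleens higher in 3.39% of all genes tested.

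Of 11 other AP-1 family genes tested, 0 were called, with 5 positive and 6 negative fold changes and a median of -0.20. Batf, the AP-1 partner of IRF4 in lymphocytes, was at 30.3, 38.3, 50.3 and 222 FPKM in plckGAPDH spleens 343, 508, 547 and unnumbered, against 19.4, 32.0 and 17.3 FPKM in WT spleens 1, 4 and 5. The unnumbered spleen was the highest and spleen 343 lay just under WT spleen 4. Batf's log2 fold change was 1.41 (SE 0.62, limma FDR 0.528). T cell markers were also highest in the unnumbered spleen, with a summed level of 1535 FPKM, against 229 to 469 in plckGAPDH spleens 343, 508 and 547 and 541 to 1091 in WT spleens. Their part in the Batf level was not tested. Jdp2, a repressor of AP-1, was at 1.08 (limma FDR 0.471). Its groups did not overlap, at 2.54 to 10.1 FPKM in plckGAPDH spleens against 1.74 to 2.53 in WT spleens.

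None of 25 genes of the ERK, JNK, p38 and SRF pathways was called, with a median of -0.06 that became -0.24 after rescaling without mitochondrial, receptor and haemoglobin genes. The ERK-activated kinase Rps6ka3 at -0.79 and the SRF partner Mkl1 at -0.77 had the largest values (limma FDR 0.632 and 0.781). Of 10 heat shock genes, 0 were called (median 0.14, and -0.11 after that rescaling), with Hsp90ab1 at 0.61 and Bag3 at 0.59. Of 7 tested mRNAs that ZFP36 is known to bind, 6 were positive and 0 called, with a median of 0.51. Without the unnumbered spleen 2 were positive and the median was -0.09, without WT spleen 1 or 5 the median was 0.03 or 0.06, and without WT spleen 4 or plckGAPDH spleen 508 it was 1.35 or 1.12. Il10 was at 1.28 (limma FDR 0.720). Il1b, the inflammatory cytokine, was the negative one at -1.81 (limma FDR 0.168), with 0.76, 4.48, 4.23 and 2.74 FPKM in plckGAPDH spleens 343, 508, 547 and unnumbered, against 5.31, 16.8 and 18.5 FPKM in WT spleens 1, 4 and 5. Every plckGAPDH spleen lay below every WT spleen for Il1b, as was so for 3.88% of all genes tested.

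In the lymph node comparison these lists also gave 0 calls. Their medians were -0.49 for other immediate early genes, -0.30 for other AP-1 family genes, -0.81 for ERK, JNK, p38 and SRF pathway genes, -0.76 for heat shock genes and -1.41 for mRNAs bound by ZFP36, beside -0.59 for all genes. With median-of-ratios scaling they were 0.06, 0.12, -0.15, -0.08 and -0.82, beside -0.01. Among the largest values were -1.61 for Klf2, a factor of quiescent lymphocytes, -1.33 for Zfp36l1, a relative of Zfp36, -0.94 for Atf7, -0.92 for Atf2, -1.34 for Rps6ka1, -1.06 for Hspa8, -0.98 for Dnaja1, -1.93 for Ccl3 and -1.91 for Ccl4, with limma FDR of 0.359 to 0.400.

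The genes whose levels were most like the mean of the 10 over the 9 libraries were Rcbtb2, Iglc1, Il3ra, Ly6k, Igkv4-63 and RP23-49L8.5, out of 8896 genes compared. Their Pearson r ran from 0.904 to 0.962 and their Spearman rho from 0.550 to 0.95. The libraries share their scaling, and 2 of them come from animal 508. Without that animal's libraries, r was 0.850 for Rcbtb2 and 0.679 for Ly6k, and 0.280 to 0.453 for the other 4. Rcbtb2 was at 6.74 and 18.7 FPKM in lymph nodes 455 and 508, at 5.87, 31.3, 9.23 and 10.5 in plckGAPDH spleens 343, 508, 547 and unnumbered, and at 10.4, 7.29 and 13.3 in WT spleens 1, 4 and 5. Iglc1 and Igkv4-63 are light chain genes of antibodies.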

How the data were processed

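Splenocyte RNA went into libraries of a stranded total RNA kit, per the labels' protocols. The deposited table holds FPKM with 2 decimals, made by the authors. Per the submitters' processing notes, the tools were Bowtie2 2.2.6, RSEM, STAR 2.4.0a and featureCounts (Subread 1.5.0-p3), with build mm10. Their roles and the annotation do not appear in the sources used here.

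The model for the spleens was limma (version 3.58.1, R version 4.3.3) fitted to log2(FPKM + 1) with a trended prior, over genes with 1 FPKM in 3 of the 7 spleens. Lymph nodes were compared in a fit of 3 groups over all 9 libraries, with 1 FPKM in 2. P-values were two-sided and Benjamini-Hochberg adjusted over all genes tested (FDR, threshold 0.05). A fold change on this scale understates the change of low genes. AP-1 shares were compared with an exact permutation test, adjusted over 7 genes. Steps were tested on simulated data. Depth was estimated from genes with 1 annotated transcript, whose low values lay at whole fragments (within 0.1) in 74.9% to 79.4% of cases, and fragments of a gene used its longest GENCODE transcript. Between any pair of libraries, at most 0.257% of genes at 1 FPKM or more had equal values. Mitochondrial ribosomal RNA made 9.68% to 39.3% of the FPKM sum.

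The 10 genes and the lists were chosen with earlier results of these data known. From each list, called genes or else the 2 with the largest absolute fold change were named, and the 6 genes most like the mean of the 10, by Pearson r, among genes whose mean log2(FPKM + 1) was 2 or more. A gene that this rule takes in the lymph node comparison is not reported here. Rhob, Nr4a1, Hspa1a, Camp and Hba-a2 were named after their values were seen. Alternatives were another pseudocount, filters, scalings, weights and left-out libraries.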

Additional observations from a re-analysis of the deposited data

Results flagged for a closer look

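Among the 4 plckGAPDH spleens, spleen 508 lay far from the others for Fos, at 59.6 FPKM, with a gap to the next spleen of 0.961 of the whole range, above Dixon's critical value of 0.829. Fosb was at 7.45 FPKM in the same spleen, with a gap of 0.966. The shares of both genes in AP-1 RNA, 32.2% for Fos and 4.025% for Fosb in spleen 508, were likewise apart, with gaps of 0.929 and 0.939. The level and the share of a gene rest on the same reads, and chance flags about 1 in 20 groups. Over all 12607 genes tested, which leave out Fosb, 7.45% had such a gap at either end, and in 0.865% spleen 508 was the high library.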

How the results depend on the processing

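No paired analysis was possible because the groups share only the number 508. For the spleens, the count of the 10 genes called was 0 under every alternative but sample quality weights, with 2. All genes called numbered 181, and 74 without a filter on low values, 1863 with sample quality weights, 12 without WT spleens 4 and 5 together and 72 to 265 with any 1 library left out (110, 90 and 72 without WT spleen 1, 4 or 5). With any 1 library left out, the log2 fold change ran from -0.0286 to 1.60 for Fos and from -0.58 to 0.0686 for Ier2, and the difference in AP-1 share in percentage points from -1.07 to 9.17 for Fos, -0.281 to 1.004 for Fosb and -6.07 to 0.837 for Jund. As a log2 ratio to the other 6 genes, the Fosb difference was -0.07144. No share passed under any alternative, but no p under 0.05 was possible with a library left out.

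For the lymph nodes, the count of the 10 genes called was 0 under every alternative. All genes called numbered 2, and 5 with a pseudocount of 0.1, 5 without a filter, 1 with median-of-ratios scaling, 7 with sample quality weights, 8 with the 6 plckGAPDH samples only, 38 without both libraries of animal 508 (chosen after seeing the data) and 0 to 28 with any 1 library left out (24 without spleen 508 and 28 without lymph node 508). With median-of-ratios scaling the sign turned for Jun (0.54), Junb (0.30), Jund (0.26), Egr1 (0.24), Ier2 (0.53) and Zfp36 (0.38), as the median of all genes moved to -0.01. The sign also turned for Dusp1 after rescaling without mitochondrial, receptor and haemoglobin genes (-0.17) and with sample quality weights (-0.0278), and for Jun with weights (0.17). With any 1 library left out the ranges that crossed 0 were -0.45 to 2.16 for Fos, -1.16 to 0.82 for Jun, -1.31 to 0.34 for Jund, -1.11 to 0.27 for Egr1, -0.75 to 0.43 for Ier2, -0.36 to 0.46 for Dusp1 and -0.76 to 0.0304 for Zfp36. The cause of these turns was not tested.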

Other observations

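In 15 of 13682 genes the lower of the libraries of animal 508 was over 5 times the highest of the other 7, which is 0.110% of them. Of these, 4 were immunoglobulin genes and 2 T cell receptor genes. Apart from receptor genes, 3 were protein-coding: Fosb at 13.9 times, Fos at 7.41 times and Prlr, the prolactin receptor, at 7.24 times. Fosb met the filter of 1 FPKM in 2 libraries only through animal 508. The genes were named after their values were seen, and no test was made.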
